A study of Mus musculus with 300 samples.

Results

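Zbtb16, Icos, Pdcd1 and Il18r1 were followed across all 261 cells of the deposited expression matrix, 4 genes of the 13737 features it holds. They were chosen by name: transcripts of all of them mark precursors of innate lymphoid cells (ILCs) in mice. The cells were early thymic progenitors (ETPs) taken on embryonic day 15.5 from the thymus of 5x polychromILC mice, a strain with fluorescent reporters inserted at several loci, Bcl11b, Id2, Rora and Gata3 among them. All cells form 1 group with these alleles, and the labels name no treatment and no control. They give 4 mouse ids with 67 (1A), 69 (1B), 64 (2A) and 61 cells (2B) in the matrix, while 39 of the 300 labelled cells were not analysed here. The labels do not say whether a mouse id is 1 embryo or a pool, nor which gate was sorted.

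ILCs are lymphocytes without rearranged antigen receptors. Helper-type ILCs arise from progenitors that switch on Id2, Tcf7, Gata3 and then Zbtb16, which encodes PLZF, a BTB zinc finger transcription factor that also directs innate-like T cells. Icos and Pdcd1 encode 2 receptors of the CD28 family, the costimulatory ICOS and the inhibitory PD-1, both found on ILC precursors of mouse bone marrow. Il18r1 encodes the chain of the interleukin-18 receptor that binds the cytokine, and Il18rap the accessory chain. The fetal thymus is a site where ILC and T-cell fates separate.

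On GRCm38 the genes lie at chr9:48654297-48836222 on the minus strand (Zbtb16), chr1:60977927-61000320 on the plus strand (Icos), chr1:94038305-94052553 on the minus strand (Pdcd1) and chr1:40465552-40500854 on the plus strand (Il18r1). Icos overlaps the annotated locus Gm37039, and the counting is not stated to separate the pair. The next gene of interest beside Il18r1 is Il18rap, at chr1:40515362-40551705 on the same strand. The 250 bases before a start site of each of these neighbours are shown because both chains of the receptor are followed below (RefSeq, GRCm38.p6, plus strand, 5′ to 3′, chr1:40465302-40465551 and chr1:40515112-40515361). Capitals mark a match to TCAAAG, the reverse complement of the TCF1 letters CTTTGA.

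Il18r1: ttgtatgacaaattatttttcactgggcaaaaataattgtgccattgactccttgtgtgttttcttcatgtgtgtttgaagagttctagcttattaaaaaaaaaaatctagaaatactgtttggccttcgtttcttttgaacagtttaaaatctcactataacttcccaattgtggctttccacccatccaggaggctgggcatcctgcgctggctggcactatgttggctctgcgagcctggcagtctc

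Il18rap: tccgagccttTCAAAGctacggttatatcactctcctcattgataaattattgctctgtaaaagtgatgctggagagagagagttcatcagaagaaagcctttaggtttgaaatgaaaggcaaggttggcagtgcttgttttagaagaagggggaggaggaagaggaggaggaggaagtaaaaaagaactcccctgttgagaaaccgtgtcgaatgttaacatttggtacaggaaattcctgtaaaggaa

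Both strands were searched for 4 motifs. CTTTGA stands for TCF1 and was found in 13.8% of 32851 windows of this length. AGATAA stands for GATA factors and was found in 9.99% of them. TGTGGT stands for RUNX factors and was found in 14% of them. CCGGAA stands for ETS factors and was found in 12% of them. The Il18r1 window holds 0 matches and the Il18rap window 1, whose first base is at -240 from the start site. RefSeq gave 3 promoter entries for Il18r1, and matches are given only for the window shown. A match describes the letters and is not a binding site.

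The deposited values are log2 expression after a batch correction, and read depth per cell was not given. The cells fall into 4 correction sets, recognised because cells of 1 set share exact values. For 12054 of the 13737 features, the 4 genes among them, the lowest value recurs within every set. A recurring lowest value was read as zero reads, and a gene counted as detected in a cell when its value lay off this floor. Where a gene had no recurring lowest value in a set, it counted as detected in all cells of that set. The floor differed between sets by little for the 4 genes (-0.27 to 0.29 log2 for Zbtb16, and within 0.11 of 0 for the other genes). The number of detected genes per cell, used here as the measure of depth, had a median of 7782 (5073 to 10337). It was lower in the 165 cells of the first sequencing pool (median 7592) than in the 96 cells of the second (8126.5). The sets and the mouse labels do not match exactly: 14 cells lie in a set that holds less than 20% of their labelled mouse's cells. Mice 2A and 2B share sets 2 and 4, so the 4 mice may not be 4 independent units.

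A second split runs through the data. In 23 cells both Klrd1 and Il2rb, a lectin-like receptor and a cytokine receptor chain of natural killer (NK) cells, had a log2 value of at least 3.5 (6, 8, 9 and 0 cells in mice 1A, 1B, 2A and 2B), against 238 other cells. Below, cells with Klrd1 and Il2rb are those with both values at or above 3.5, and either gene may be detected at a lower value in the other cells. The lower of the 2 values was 4.36 in the cell just inside this threshold and 3.43 in the cell just outside. Of the 23 cells, 21 were in the first 8 wells of a set, which hold 32 cells in all, and 7 are among the 14 whose set and label differ. These cells go against the label ETP. Cd34, a progenitor marker, reached a linear value of 10 in 4.35% of them and in 80.3% of the other cells, and Kit, the stem cell factor receptor, in 21.7% and 87.4%. Cd3e, a T-cell receptor component, was detected in 1 of the 23 cells and in 16 of the 238.

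Il18r1 was detected in the largest share of cells, followed by Zbtb16, Pdcd1 and Icos. Il18r1 was found in 94 cells, with 37.3, 30.4, 39.1 and 37.7% of the cells of mice 1A, 1B, 2A and 2B (36.1 ± 3.87%, SD, n = 4 mice). Zbtb16 was found in 83 cells, with 20.9, 15.9, 43.8 and 49.2% (32.4 ± 16.5%). Il18r1 thus varied little among mice, while Zbtb16 was found in larger shares of 2A and 2B than of 1A and 1B.

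Pdcd1 was found in 59 cells, with 20.9, 10.1, 18.8 and 42.6% (23.1 ± 13.8%). Icos was found in 51 cells, with 11.9, 13, 21.9 and 32.8% (19.9 ± 9.67%). Neighbours in this order (Il18r1 and Zbtb16, Zbtb16 and Pdcd1, Pdcd1 and Icos) differ by less than the SD over mice. The genes differ in length, so the order of shares is not an order of transcript amounts. With 61 to 69 cells per mouse the exact 95% Clopper-Pearson intervals, which cover counting error only, span for instance 36.1 to 62.3% for Zbtb16 in 2B and 8.24 to 26.7% in 1B.

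The shares of cells with Zbtb16, Pdcd1 and Icos detected followed the sequencing pool, and that of Il18r1 did so less. Zbtb16 was detected in 55.2% of the second pool and 18.2% of the first, Pdcd1 in 38.5% and 13.3%, Icos in 32.3% and 12.1%, and Il18r1 in 38.5% and 34.5%. Mouse 2A has cells in both pools. Within it Zbtb16 was detected in 65.7% of 35 cells of the second pool and 17.2% of 29 cells of the first, Pdcd1 in 31.4% and 3.45%, Icos in 31.4% and 10.3%, and Il18r1 in 40% and 37.9%. At a linear value of at least 10 the shares in 2A were 28.6 and 17.2% for Zbtb16 and 14.3 and 3.45% for Icos. Pdcd1 and Il18r1 too reached this level in a larger share of the second pool of 2A than of the first. In this mouse the weaker tie of Il18r1 to pool thus holds for detection only. Pool and mouse cannot be told apart for 1A, 1B and 2B. In 2A pool cannot be told apart from plate and correction set. Its second-pool cells are plate JW7 and set 2, and its first-pool cells plate AF2 and sets 3 and 4. Set 2 also holds 7 of the 9 cells of 2A with Klrd1 and Il2rb.

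Most detected values of Pdcd1 were low. Detected Pdcd1 values had a median of 1.19 log2 (0.57 to 10.05), and Il18r1 values a median of 2.19 (0.52 to 10.46). Icos had a median of 3.26 (0.57 to 10.44) and Zbtb16 of 4.97 (0.44 to 9.55). A linear value 10 or more above the floor was reached by Zbtb16 in 19.1 ± 7.83% of cells, by Il18r1 in 12.1 ± 5.17%, by Icos in 9.30 ± 2.72% and by Pdcd1 in 5.34 ± 0.635% (SD, n = 4 mice). At this level Pdcd1 no longer differed much among mice: it reached it in 5.97, 5.80, 4.69 and 4.92% of cells of 1A, 1B, 2A and 2B. Il18r1 reached it in 13.4, 13, 17.2 and 4.92%, lowest in 2B, the mouse with 0 of the 23 cells that hold Klrd1 and Il2rb.

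**Figure D1:**
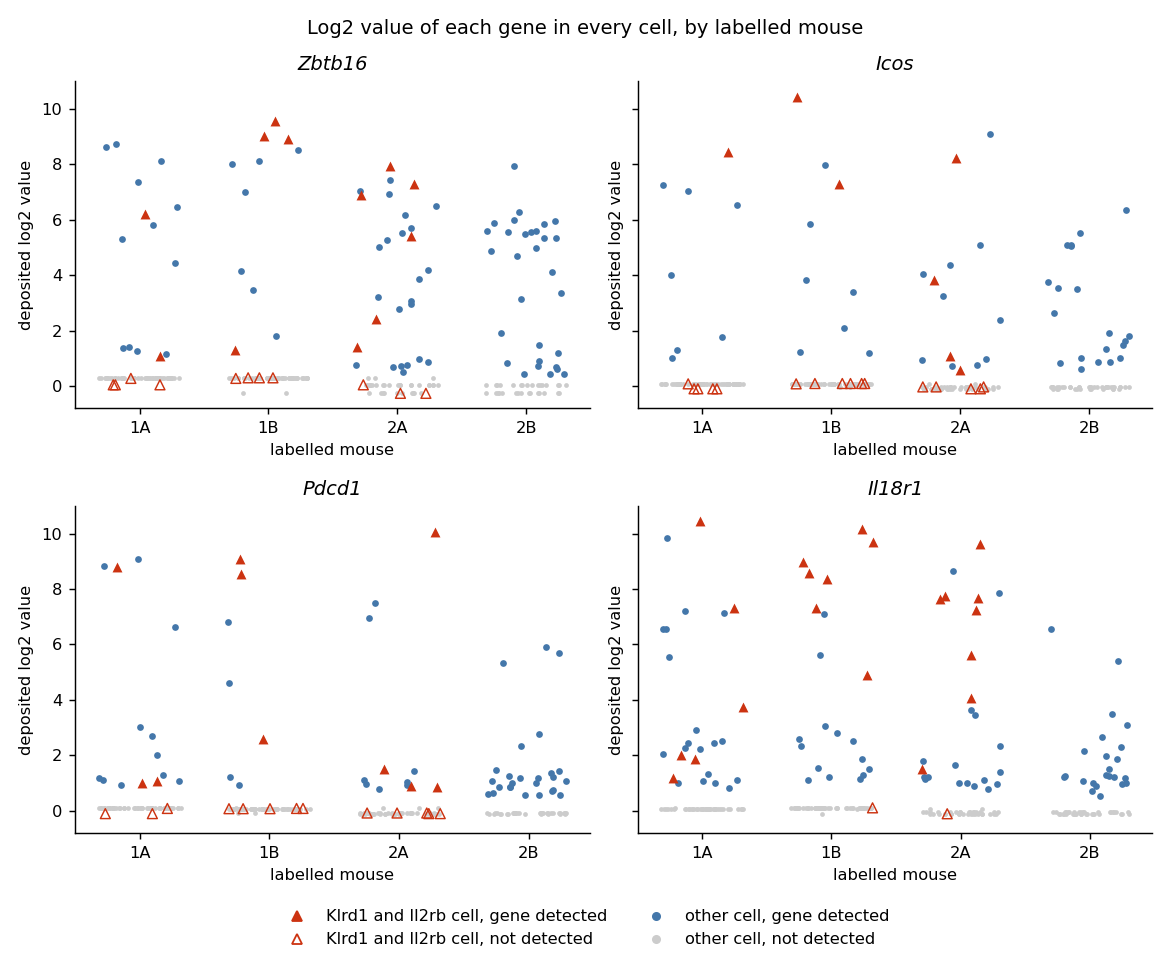
Deposited log2 value of Zbtb16, Icos, Pdcd1 and Il18r1 (y axis) in each cell, by labelled mouse (x axis). Red triangles are cells with Klrd1 and Il2rb at a log2 value of at least 3.5 (open where the gene was not detected), blue points are other cells with the gene detected, and grey points other cells without it. Of the 32 cells with Il18r1 at a linear value of 10 or more, 17 are red triangles. For Zbtb16 41 of 49 such cells are blue, but other cells make up 238 of the 261. Zbtb16 reached this level in 34.8% of the cells with Klrd1 and Il2rb and in 17.2% of the other cells.

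Of the 4 genes Il18r1 differed most in detection between the cells with Klrd1 and Il2rb and the other cells. It was detected in 21 of these 23 cells (91.3%, 95% interval 72.0 to 98.9) and in 73 of the 238 other cells (30.7%, 24.9 to 37). At a linear value of at least 10 the shares were 73.9% and 6.30%. By mouse it was detected in 100% of these cells and 31.1% of other cells in 1A, in 87.5% and 23% in 1B, and in 88.9% and 30.9% in 2A. The difference was 63.8 ± 5.48 percentage points (SD, n = 3 mice). An exact sign-flip permutation test gave p = 0.25, two-sided, which is the smallest that 3 mice allow. With the 4 correction sets as units in place of mice, an alternative chosen after seeing the data, the difference was 61.8 ± 10.02 points, above 0 in 4 of 4 sets.

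The other members were also detected more often in these cells in each of the 3 mice, by less. Zbtb16 was detected in 12 of the 23 cells and 71 of the 238, a difference of 26.3 ± 12.4 points over the 3 mice. Pdcd1 was detected in 10 and 49 cells, a difference of 30.9 ± 1.03 points. Icos was detected in 7 and 44 cells, a difference of 14.99 ± 10.6 points. Each of the 3 exact tests again gave p = 0.25. With sets as units Zbtb16 differed by 20.3 ± 11.97 points (4 of 4 sets), Pdcd1 by 16.6 ± 24.6 and Icos by 11.3 ± 22.4 (3 of 4 sets each), and the spread of the last pair exceeds the difference. Mouse 2B, with 0 of these cells, had the highest shares of Zbtb16, Pdcd1 and Icos, but all its cells are in the second pool. Within that pool Zbtb16 was detected in 65.7% of 2A cells and 49.2% of 2B cells, and Icos in 31.4 and 32.8%. Pdcd1 stayed higher in 2B.

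**Figure D2:**
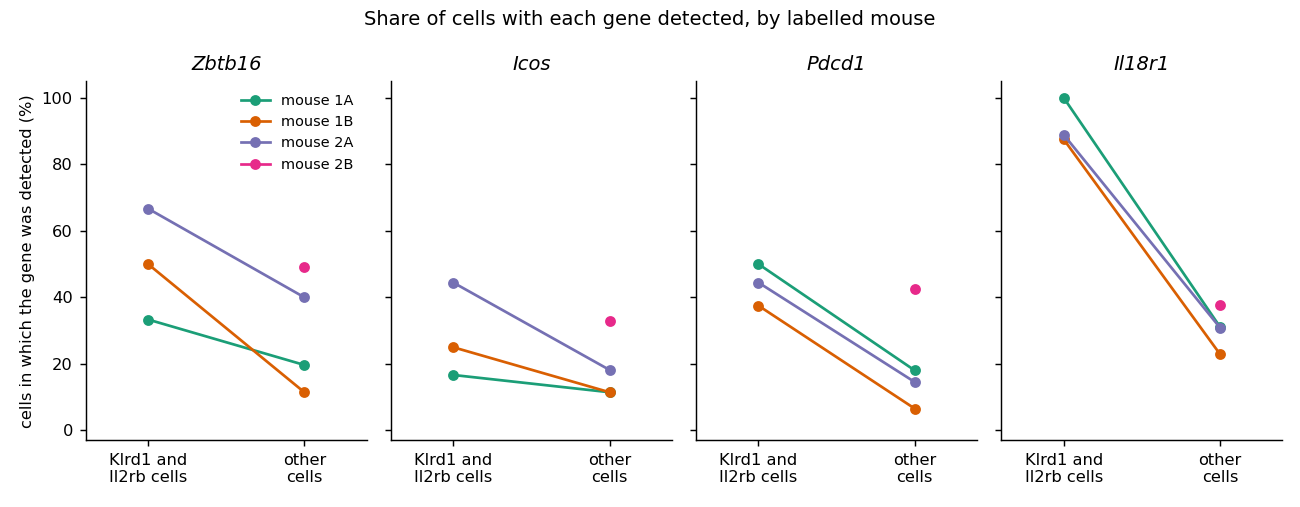
Percentage of cells in which each gene was detected (y axis) in cells with Klrd1 and Il2rb and in other cells, 1 line per labelled mouse. Mouse 2B has other cells only. Il18r1 lies between 87.5 and 100% in the cells with Klrd1 and Il2rb and between 23 and 37.7% in the other cells.

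Levels were compared in the same way, with 1 difference per mouse, adjusted for depth (as a rank) and correction set, and tested over all genes with limma. Il18r1 averaged 5.79 log2 in the cells with Klrd1 and Il2rb and 0.82 in the other cells. Its adjusted difference was 3.55 ± 3.42 log2 (SD, n = 3 mice), with -0.26 in 1A, 6.35 in 1B and 4.54 in 2A, and it did not pass (adjusted p = 0.545). In 1A the set term leaves 1 such cell: the other 5 are all of that mouse's cells in set 4. This fit called 0 of 12439 genes (0% higher and 0% lower), among them 0 of the 4 members. At an unadjusted p under 0.05 there were 1197 genes, 2.18% of all higher and 7.44% lower. With depth as the only covariate it called 152 (0.748% higher and 0.474% lower), again 0 of the members.

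With correction sets as units and plate as a covariate, an alternative chosen after seeing the data, limma called 298 genes, 172 higher (1.38%, Klrd1 and Il2rb, which chose the cells, among them) and 126 lower (1.01%). Il18r1 was the only one of the 4 members among them, 4.69 ± 1.10 log2 higher in the cells with Klrd1 and Il2rb (SD, n = 4 sets, adjusted p = 0.0139, limma). Zbtb16 had 2.20 ± 0.63 (adjusted p = 0.0514), Icos 1.67 ± 0.36 (adjusted p = 0.0773) and Pdcd1 1.46 ± 1.69 (adjusted p = 0.323). Over the 11 fits of this comparison the adjusted p of Il18r1 reached 0.05 only here, and the units hold 6, 7, 3 and 7 such cells.

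The cells with Klrd1 and Il2rb carried other NK genes and few progenitor transcripts. Of the 16 other genes of the NK list that were tested, 15 had a difference above 0, against 37.6% of all genes. Their median was 4.95 log2 against -0.26 over all genes. The 18 other NK genes in the matrix summed to 102 to 125 log2 units per cell in these cells and 26.5 to 31.1 in other cells (range of 3 mice), and each of the 18 was detected in both groups. Klrc1 and Klrk1, lectin-like receptors, differed by 7.70 ± 1.94 and 7.46 ± 2.44 log2, and Id2, an inhibitor of E proteins, by 6.88 ± 1.35. Of 14 progenitor genes 13 had a difference below 0, against 7764 of 12437 genes tested. Among the 13 were the transcription factor Spi1 (-5.38 ± 0.30), Cd34 (-4.02 ± 0.79) and Kit (-3.86 ± 0.71). With sets as units 13 of the 16 NK genes were called higher (1.38% of all genes) and 6 of the 14 progenitor genes lower (1.01%). Cd3g, a T-cell receptor component, had 8.72 log2 in these cells and 0.83 in the others, whereas Cd3e was near absent from both.

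All 4 genes were found together in 4 cells, and 3 of these hold Klrd1 and Il2rb. In a cell of mouse 1B Zbtb16, Icos, Pdcd1 and Il18r1 had 9.55, 10.44, 9.08 and 8.97 log2, in a cell of 1A 6.21, 8.43, 8.80 and 7.33, and in a cell of 2A 7.94, 8.22, 10.05 and 7.63. Each of these values lies above the median of the gene's detected values. They also had Tcf7 at 10.71, 7.63 and 8.87 log2 and Id2 at 12.18, 11.08 and 11.60, and Gata3 at 6.03, 7.56 and 9.01. Each is in a different correction set (1, 4 and 2), and their numbers of detected genes were 5981, 8098 and 8115. The remaining cell, of mouse 2A, had 3.84, 0.76, 6.97 and 2.35, and its Klrd1 and Il2rb were detected at values under 3.5.

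Over all cells, 0, 1, 2, 3 and 4 of the genes were detected in 85, 99, 47, 26 and 4 cells. The product of the shares in each mouse gives 76, 104.9, 60.2, 17.6 and 2.20 cells. Cells with 3 genes were thus more frequent and cells with 2 less frequent than that product. Mouse 2A joins cells of both sequencing pools, in which the shares of Zbtb16, Pdcd1 and Icos differ. Joining such pools raises the number of cells with several genes by itself, also for the pairs below. The product within pools was not computed. Of the 23 cells with Klrd1 and Il2rb, 0 had none of the genes, 5 had 3 and 3 had 4. The product of the shares within these cells gives 0.34, 6.53 and 1.55. Of the 238 other cells 85 had none, 21 had 3 and 1 had 4, where the product gives 82.3, 13.99 and 1.85.

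Of the 6 pairs, Zbtb16 and Icos had the largest excess of shared cells over all 4 mice, which rests on mouse 2A: without it the excess was 1.51 percentage points, against 1.62 for Zbtb16 and Pdcd1. They were found together in 27 cells, 32.5% of those with Zbtb16 and 52.9% of those with Icos. Icos was detected in 21.4% of cells with Zbtb16 and 9.43% of cells without it in mouse 1A, in 27.3 and 10.3% in 1B, in 39.3 and 8.33% in 2A, and in 33.3 and 32.3% in 2B. The share was much higher with Zbtb16 in 2A and nearly equal in 2B. The excess over the product of shares was 3.03 ± 3.18 percentage points (SD, n = 4 mice), above 0 in 4 of 4 mice, and an exact sign-flip permutation test gave p = 0.125, the smallest that 4 mice allow (0.25 adjusted over 6 pairs).

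The pair kept an excess when depth and the cells with Klrd1 and Il2rb were taken into account. The Mantel-Haenszel odds ratio of Zbtb16 and Icos was 2.72 within mouse and set, 2.27 when each of these was also split at its median number of detected genes, and 2.03 within mouse and set among the other cells, where 20 of the 27 shared cells lie. At a linear value of at least 10 for both genes, 12 cells remained.

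The other pairs were closer to the product of their shares. Zbtb16 and Pdcd1 shared 27 cells, an excess of 1.90 ± 0.63 points in 4 of 4 mice (exact p = 0.125, odds ratio within mouse and set 1.48). The excess and its p take the shares of a whole mouse, and in 2A they join both pools, whose shares of Zbtb16 and Pdcd1 differ. The excess within pools was not computed. Sets keep the pools of 2A apart, and the odds ratio within mouse only was 1.71. Icos and Il18r1 shared 24 cells (1.97 ± 3.66, 2 of 4 mice, odds ratio 1.89). In 1B and 2A, Il18r1 was detected in 66.7 and 64.3% of cells with Icos and 25 and 32% of cells without it, whereas in 1A and 2B it was less frequent with Icos, at 25 and 35% with it and 39% without it in either mouse.

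Icos and Pdcd1 shared 16 cells (0.91 ± 1.03, 4 of 4 mice, odds ratio 1.04), and Pdcd1 and Il18r1 shared 24 (0.84 ± 0.98, 3 of 4 mice, odds ratio 1.23). Within mouse only, where the pools of 2A are joined, the odds ratio of Icos and Pdcd1 was 1.38. Zbtb16 and Il18r1 shared 31 cells, which is what the product of their shares gives (0.04 ± 1.76, 2 of 4 mice, odds ratio 0.87). Among the 238 other cells the excess of Zbtb16 and Il18r1 was -1.50 points and that of Pdcd1 and Il18r1 -0.23. Over the 6 pairs the smallest adjusted p was 0.25.

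**Figure D3:**
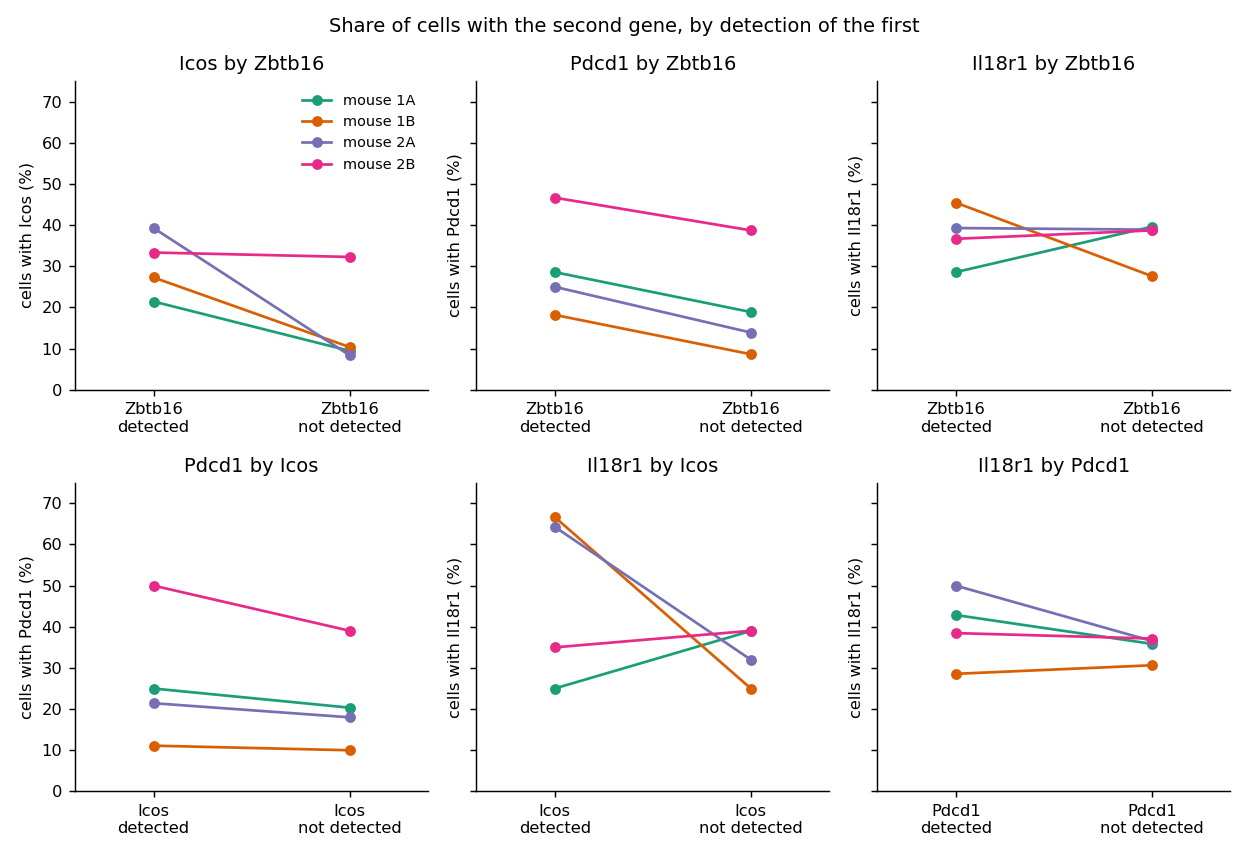
Percentage of cells with the second gene of each pair (y axis) among cells with and cells without the first gene (x axis), 1 line per labelled mouse. For Icos by Zbtb16 the 4 lines slope down to the right, steeply in 2A (39.3 and 8.33%) and barely in 2B (33.3 and 32.3%); for Il18r1 by Zbtb16 they cross.

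Depth moved with the members in different directions. Cells with Zbtb16 had 303 ± 275 more detected genes than cells without it (difference of medians, SD, n = 4 mice; more in 4 of 4), and cells with Icos 175 ± 182 more (3 of 4 mice). Cells with Pdcd1 differed by -124 ± 336 (more in 1 of 4 mice), and cells with Il18r1 by -545 ± 190 (fewer in 4 of 4 mice, exact p = 0.125). The fits below adjust for it.

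Partner genes of each member were sought among 12438 genes detected in at least 10% of cells. For each of the 4 members limma called 0 genes in either direction (0%), the 3 other members included. At an unadjusted p under 0.05 there were 839 genes for Zbtb16 (4% of all higher, 2.75% lower), 678 for Icos (3% and 2.45%), 846 for Pdcd1 (2.24% and 4.56%) and 1278 for Il18r1 (2.57% and 7.7%). Among these were Icos with Zbtb16 (unadjusted p = 0.0176, limma), and Zbtb16 (unadjusted p = 0.00397) and Il18r1 (unadjusted p = 0.0258) with Icos. In simulated data a shift of 2 log2 was recovered for 78% (Zbtb16), 62% (Icos), 68% (Pdcd1) and 88% (Il18r1) of shifted genes. A shift of 1 log2 was recovered for 2%, 2%, 4% and 10% in the same order, and a shift of 3 log2 for 90 to 100%. Of the unshifted genes 2 were called for Zbtb16 and 3 for each other member. Each simulated shift was the same in every cell with the member and in every mouse. Recovery of differences that vary between mice was not tested. A partial Spearman correlation with the member's level in place of its presence called 7 genes for Zbtb16, 1 for Icos, 0 for Pdcd1 and 27 for Il18r1. The lists below are therefore described by counts and medians of differences, cells with the member minus cells without it.

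With Zbtb16, genes of T-cell specification and of ILC precursors had differences mostly above 0, and this held for T specification without the cells with Klrd1 and Il2rb. Of 20 ILC genes tested 18 were above 0 (median 0.62 log2; 0.03 over all genes, 54.1% above 0), and of 18 tested without those cells 12 were (median 0.28; 57.3% of all genes above 0). With all cells 7 of the 20 had an unadjusted p under 0.05 in that direction, against 4% of all genes. Tcf7, which encodes TCF-1, averaged 6.30 log2 in cells with Zbtb16 and 3.98 in cells without it. Its adjusted difference was 3.15, 3.14, 1.38 and 1.54 log2 in mice 1A, 1B, 2A and 2B (2.30 ± 0.97).

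Il17rb, a chain of the interleukin-25 receptor found on type 2 ILCs and innate-like T cells, averaged 5.03 and 3.06 log2. Its difference was 2.96, 2.12, 0.80 and 1.96 (1.96 ± 0.89). Both were above 0 in all 4 mice, and they were called with the partial Spearman correlation (mean rho 0.313 for Tcf7, adjusted p = 0.00759; 0.338 for Il17rb, adjusted p = 0.00252; limma on Fisher z). Without the 23 cells with Klrd1 and Il2rb they were as large, 2.42 ± 0.79 for Tcf7 and 2.45 ± 1.22 for Il17rb. Ets1, a transcription factor of lymphocytes, had 1.31 ± 1.23 and 0.89 ± 0.86 without those cells.

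Of 16 T specification genes 13 were above 0 with Zbtb16 (median 0.71, and 0.64 without the cells with Klrd1 and Il2rb). The T-cell receptor constant segment Trbc1 had 1.14 ± 0.57 in 4 of 4 mice and the interleukin-2 receptor chain Il2ra 1.17 ± 1.29. Of 11 gamma-delta T genes 9 were above 0 (median 0.63, and 0.45 without those cells). The gamma constant segments Tcrg-C1 and Tcrg-C2 had 1.87 ± 1.42 and 1.44 ± 0.68, and the variable segment Tcrg-V4 was among the 7 genes called with the partial Spearman correlation (rho 0.317, adjusted p = 0.00738 by limma). The constant segments are near-identical copies, and the sources used here do not give how their reads were split.

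Of 18 NK genes 17 were above 0 with Zbtb16 (median 0.70), and of the 16 tested without the cells with Klrd1 and Il2rb 11 were (median 0.14). The list holds Klrd1 and Il2rb, which chose the cells left out, so part of such a drop is fixed by that choice. Leaving both genes off the list gave 15 of 16 above 0 (median 0.70), and 11 of 14 without those cells (median 0.21). Other NK genes go with the chosen cells too. The 20 NK genes in the matrix summed to 28.1 to 77.4 log2 units in cells with Zbtb16 and 29.7 to 37.9 in cells without it (range of 4 mice), and all 20 were detected in both. Gzma, a granzyme, had 2.46 ± 1.79 and kept 2.32 ± 1.46, and Cd160, an NK receptor, had 1.65 ± 1.17 and kept 1.20 ± 0.61. The part of these cells in the other lists was tested only by leaving them out.

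Progenitor and myeloid genes lay on the other side. Of 14 progenitor genes 11 were below 0 with Zbtb16 (median -0.50, and -0.28 without the cells with Klrd1 and Il2rb). Flt3, a growth factor receptor of multipotent progenitors, averaged 2.17 log2 in cells with Zbtb16 and 3.86 in cells without it, with differences of -1.26, -1.85, -1.79 and -2.20 in 1A, 1B, 2A and 2B (-1.78 ± 0.39, and -1.99 ± 0.37 without those cells). Hoxa9 had -1.04 ± 0.39 and Spi1 -1.21 ± 0.64, the last -0.41 ± 0.43 without those cells. All 7 macrophage genes and 10 of 12 dendritic genes were below 0. The dendritic list, which shares Flt3, summed to 15.8 to 20.3 log2 units in cells with Zbtb16 and 25.4 to 35.1 in cells without it, and the part of such cells in the result was not tested.

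Of the PLZF partners and related BTB factors 7 of 12 were above 0 with Zbtb16 (median 0.11), among them the histone deacetylase Hdac7 (0.69 ± 0.35, 4 of 4 mice). Of the innate-like T list 6 of 10 were above 0 (median 0.21), and 5 of 10 without those cells (median -0.01). Il12rb1, an interleukin-12 receptor chain, had 1.26 ± 1.29 and the receptor Slamf6 -0.90 ± 0.61, below 0 in 4 of 4 mice. Of the CD28 family and other co-receptors 5 of 13 were above 0 (median -0.07), with Cd96, an NK and T-cell receptor, at 1.56 ± 1.18 (0.89 ± 0.52 without those cells). Of the interleukin-1 and interleukin-18 receptor list 8 of 16 were above 0 (median -0.06).

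**Figure D4:**
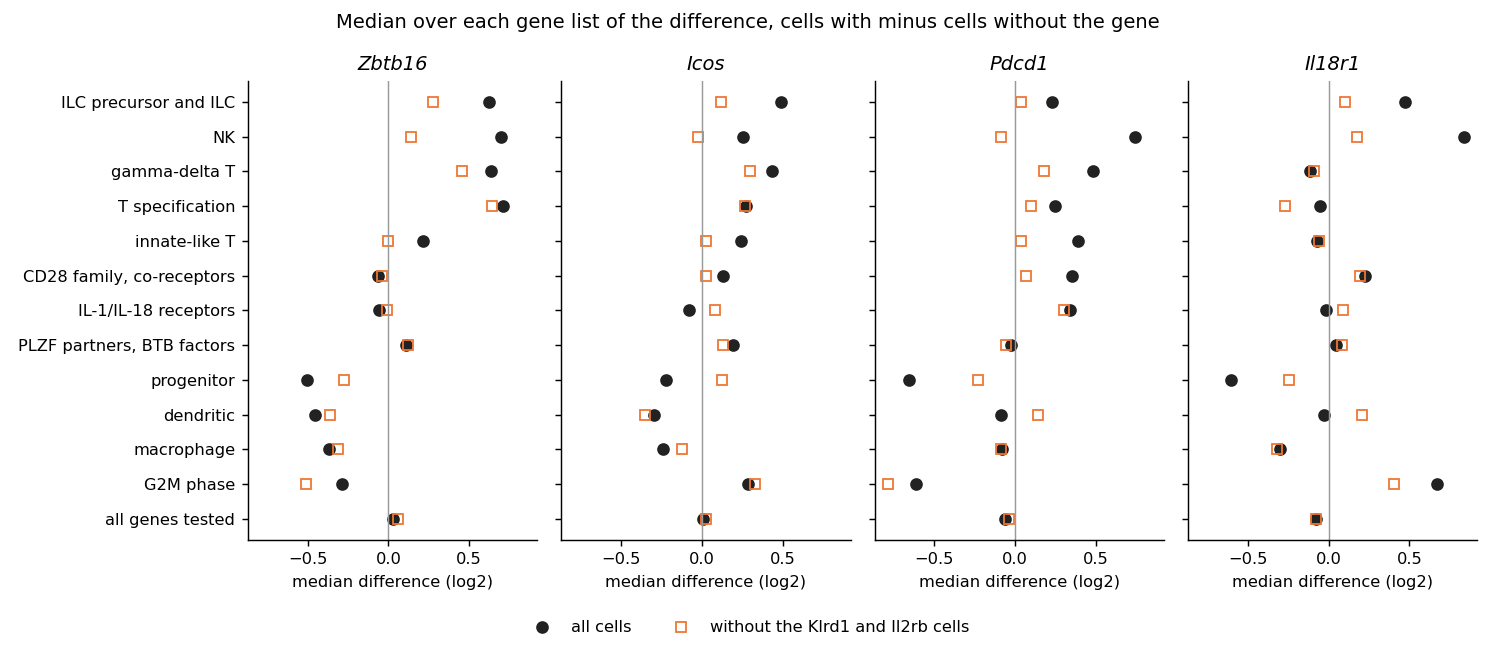
Median difference of each gene list in log2 (x axis), cells with minus cells without the gene named above each panel, for all cells (black points) and without the cells with Klrd1 and Il2rb (orange squares). The bottom row is the median of all genes tested. For Zbtb16 the T specification median stays at 0.64 without those cells, whereas the NK medians of the 4 genes, over a list that holds Klrd1 and Il2rb, lie between -0.09 and 0.18.

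The other members in the Zbtb16 fit had small differences. Icos averaged 1.42 log2 in cells with Zbtb16 and 0.44 in cells without it, with adjusted differences of 0.59, 1.69, 0.89 and 0.33 in 1A, 1B, 2A and 2B (0.87 ± 0.59, adjusted p = 0.666 by limma). Without the cells with Klrd1 and Il2rb it had 0.41 ± 0.17, above 0 in 4 of 4 mice. Pdcd1 had 0.51 ± 0.57, and -0.01 ± 0.30 without those cells. Il18r1 had 0.61 ± 0.93, and -0.20 ± 0.44 without those cells. Of the 3, only Icos stayed above 0 when those cells were left out.

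The genes whose level across cells was most like that of Zbtb16 were Il17rb, Abhd8, Marveld2, Tcrg-V4 and Tcf7 (mean partial rho of 4 mice 0.338, 0.337, 0.331, 0.317 and 0.313). Icos ranked 23rd with 0.241 ± 0.102, Pdcd1 1399th with 0.098 and Il18r1 1688th with 0.089. These rhos rest on 61 to 69 cells per mouse that share plates and depth.

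With Icos, ILC genes again lay above 0, less far once the cells with Klrd1 and Il2rb were left out. Of 20 ILC genes 16 were above 0 (median 0.49; 0.01 over all genes), and of 18 tested without those cells 13 were (median 0.12). Cxcr6, a chemokine receptor of ILCs and innate-like T cells, had 1.02 ± 0.90, and 0.34 ± 0.49 without those cells. Of 11 gamma-delta T genes 10 were above 0 (median 0.43), and 10 of 10 without those cells (0.30). Of 16 T specification genes 13 were (0.27), and 12 of 15 without those cells (0.27). Of 18 NK genes 13 were (0.25), and 6 of 16 without those cells (-0.02).

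Zbtb16 in turn averaged 2.68 log2 in cells with Icos and 1.21 in cells without it. Its differences were 0.56, 2.05, 1.81 and 1.03 in 1A, 1B, 2A and 2B (1.36 ± 0.69, adjusted p = 0.900 by limma), and 0.62 ± 0.46 without those cells, above 0 in 4 of 4 mice. Il18r1 had 1.01 ± 0.84 and Pdcd1 0.60 ± 0.32 with Icos, both in 4 of 4 mice, and 0.39 ± 0.52 and 0.04 ± 0.30 without the cells with Klrd1 and Il2rb.

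Among co-receptors Cd96 stood out with Icos, at 0.51, 2.94, 1.63 and 1.28 log2 in 1A, 1B, 2A and 2B (1.59 ± 1.02, and 0.91 ± 0.79 without the cells with Klrd1 and Il2rb). Of the 13 genes of that list 8 were above 0 (median 0.13), and 6 of 12 without those cells (0.02). The interleukin-1 receptor Il1r1, found on type 3 ILCs, had 1.07 ± 0.63 in 4 of 4 mice, and 1.14 ± 0.36 without those cells, while 7 of the 16 genes of its list were above 0 (median -0.08, and 0.08 with 10 of 16 without those cells). Among progenitor genes 9 of 14 were below 0 (median -0.22), but 9 of 14 were above 0 without those cells (median 0.12). Bcl11a had -0.86 ± 0.53, and -0.54 ± 0.65 without those cells. Among innate-like T genes 7 of 10 were above 0 (median 0.24), and 5 of 10 without those cells (0.02), and among PLZF partners 10 of 12 (median 0.19).

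In the partial Spearman fit Icos had 1 call, an identifier that the annotation used here does not hold (ENSMUSG00000103068.2, mean rho 0.686). Its position is not known here, and whether it shares reads with Icos was not tested. Next in likeness were Zfand3 (0.268), Gstm4 (0.255), Ankrd23 (0.251) and Rora (0.250), the last a nuclear receptor needed for type 2 ILCs. Zbtb16 ranked 9th with 0.241, Il18r1 48th with 0.191 ± 0.171 and Pdcd1 2537th with 0.056.

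With Pdcd1, all 18 NK genes were above 0 (median 0.74; -0.06 over all genes), and 5 of the 16 tested without the cells with Klrd1 and Il2rb (median -0.09). With Klrd1 and Il2rb left off the list these were 16 of 16 (median 0.69) and 5 of 14 (-0.09). The NK genes summed to 29.5 to 75.1 log2 units in cells with Pdcd1 and 28.5 to 39.4 in cells without it. Progenitor genes were below 0 in 13 of 14 (median -0.65, and -0.23 without those cells), with Flt3 at -1.46 ± 1.43, the MYC family factor Mycn at -0.998 ± 0.64 and Myb at -0.90 ± 1.01. Without those cells Flt3 had -1.73 ± 1.81, Mycn -0.62 ± 0.52 (below 0 in 4 of 4 mice) and Myb -0.07 ± 0.83 (above 0 in 2 of 4 mice).

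Ets1 averaged 5.97 log2 in cells with Pdcd1 and 3.68 in cells without it, with differences of 1.65, 3.32, 1.01 and 0.91 in 1A, 1B, 2A and 2B (1.72 ± 1.11, adjusted p = 0.684 by limma; 1.25 ± 0.73 without the cells with Klrd1 and Il2rb, 4 of 4 mice). It was the largest of the 20 ILC genes, of which 14 were above 0 (median 0.23, and 0.03 without those cells). Of the co-receptors 11 of 13 were above 0 (median 0.35, and 0.07 without those cells). The costimulatory receptor Tnfrsf9 had 1.54 ± 1.08 and 0.48 ± 0.68 without those cells. The inhibitory receptor Lag3 had 0.91 ± 0.66 and kept 0.83 ± 0.74.

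Irak2, a kinase of interleukin-1 and interleukin-18 receptor signalling, had 0.95 ± 0.41 with Pdcd1 and 1.03 ± 0.44 without those cells, in 4 of 4 mice both times. Its list was above 0 in 10 of 16 genes (median 0.34). Sox13, a factor of gamma-delta T cells, had -1.20 ± 0.40 and the BTB factor Zbtb1 -1.28 ± 0.70, both below 0 in 4 of 4 mice, while their lists had medians of 0.48 (8 of 11 above 0) and -0.03 (5 of 12). The gamma-delta T median was 0.18 without those cells (8 of 10). Of T specification genes 9 of 16 were above 0 (median 0.25, and 0.10 without those cells) and of innate-like T genes 9 of 10 (median 0.39, and 0.04 without those cells).

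The other members were not called in the Pdcd1 fit. Zbtb16 had 0.55 ± 0.55, Il18r1 0.32 ± 0.71 and Icos 0.23 ± 0.55 in cells with Pdcd1 minus cells without it, and 0.27 ± 0.85, -0.20 ± 0.26 and -0.40 ± 0.28 without the cells with Klrd1 and Il2rb, the last below 0 in 4 of 4 mice. The genes most like Pdcd1 were Myo1e (0.295), Slc36a1 (0.263), Surf6 (0.261), Src (0.240) and Dusp28 (0.236). Zbtb16 ranked 892nd, Icos 2359th and Il18r1 3506th.

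With Il18r1, NK genes had the largest list median in the fit of all cells. Of 18 NK genes 17 were above 0 (median 0.84; -0.08 over all genes), 12 of them at an unadjusted p under 0.05 against 2.57% of all genes. Of the 16 tested without the cells with Klrd1 and Il2rb 13 were above 0 (median 0.18), 1 at that p against 1.79% of all genes. With Klrd1 and Il2rb left off the list the medians were 0.77 (15 of 16) and 0.17 (11 of 14). The NK genes summed to 28.3 to 69.5 log2 units in cells with Il18r1 and 28.8 to 33.5 in cells without it. Klrk1 had 0.77, 2.36, 2.39 and 0.34 log2 in 1A, 1B, 2A and 2B (1.46 ± 1.06, and 0.42 ± 0.13 without those cells, 4 of 4 mice). Klrc1 had 1.54 ± 1.28, and 0.45 ± 0.32 without those cells.

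Il18rap, the other chain of the receptor, averaged 4.01 log2 in cells with Il18r1 and 2.35 in cells without it. Its differences were 2.61, 0.76, 1.597 and 0.71 in 1A, 1B, 2A and 2B (1.42 ± 0.89, adjusted p = 0.370 by limma), and it was called with the partial Spearman correlation (rho 0.311, adjusted p = 0.0187). Without the cells with Klrd1 and Il2rb it had 0.83 ± 1.29, above 0 in 3 of 4 mice. Il18rap was detected in all 23 of those cells and in 61.3% of the 238 other cells, so the second chain was detected in more cells than the first. Il12rb2, a chain of the interleukin-12 receptor, lay the other way, with 3.44 log2 in cells with Il18r1 and 5.24 in cells without it (-1.53 ± 0.60, and -1.77 ± 0.89 without those cells, below 0 in 4 of 4 mice). The receptor list as a whole had 7 of 16 above 0 (median -0.01), and 9 of 16 without those cells (0.09).

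Of 20 ILC genes 14 were above 0 with Il18r1 (median 0.47, and 0.10 without those cells). The interleukin-7 receptor chain Il7r had 2.28, 1.65, 0.24 and 0.78 log2 in 1A, 1B, 2A and 2B (1.24 ± 0.90) and kept 1.09 ± 0.77, in 4 of 4 mice both times. Klrb1b, a lectin-like receptor, had 1.22 ± 1.02 and kept 0.47 ± 0.25. Among co-receptors 11 of 13 were above 0 (median 0.22), with the adhesion receptor Cd226 at 1.12 ± 0.84 and Tnfrsf9 at 1.03 ± 0.48, both in 4 of 4 mice. Without those cells Tnfrsf9 had 0.46 ± 0.44 (3 of 4 mice) and Cd226 was below the detection filter.

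Progenitor genes were below 0 in 12 of 14 (median -0.60, and -0.25 without those cells), among them Lyl1 (-0.94 ± 1.08, and -0.60 ± 0.74 without those cells). T specification, gamma-delta T, innate-like T and PLZF partner genes had medians of -0.05, -0.11, -0.07 and 0.04, with 5 of 16, 5 of 11, 4 of 10 and 7 of 12 above 0. Zbtb16 had 0.07 ± 0.83 in cells with Il18r1 minus cells without it, Pdcd1 0.10 ± 0.27 and Icos 0.53 ± 0.73. Without the cells with Klrd1 and Il2rb these were -0.37 ± 0.37, -0.03 ± 0.22 and 0.33 ± 0.64.

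The genes most like Il18r1 were Ikzf3, an Ikaros family factor (rho 0.360), Pglyrp1 (0.351), Gm44511 (0.346), Chpf (0.343) and Klrk1 (0.341). Each had a rho of 0.195 to 0.625 in 1A, 1B and 2A and between -0.170 and 0.096 in 2B, the mouse without cells with Klrd1 and Il2rb. Of the 27 genes called with the partial Spearman correlation 20 were positive, among them Klrk1, Klrc1, Klrb1c, Il18rap, Cd226, Cd247 and Tnfrsf9, and 7 negative. Icos ranked 165th with 0.191, Zbtb16 1424th and Pdcd1 3462nd.

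**Figure D5:**
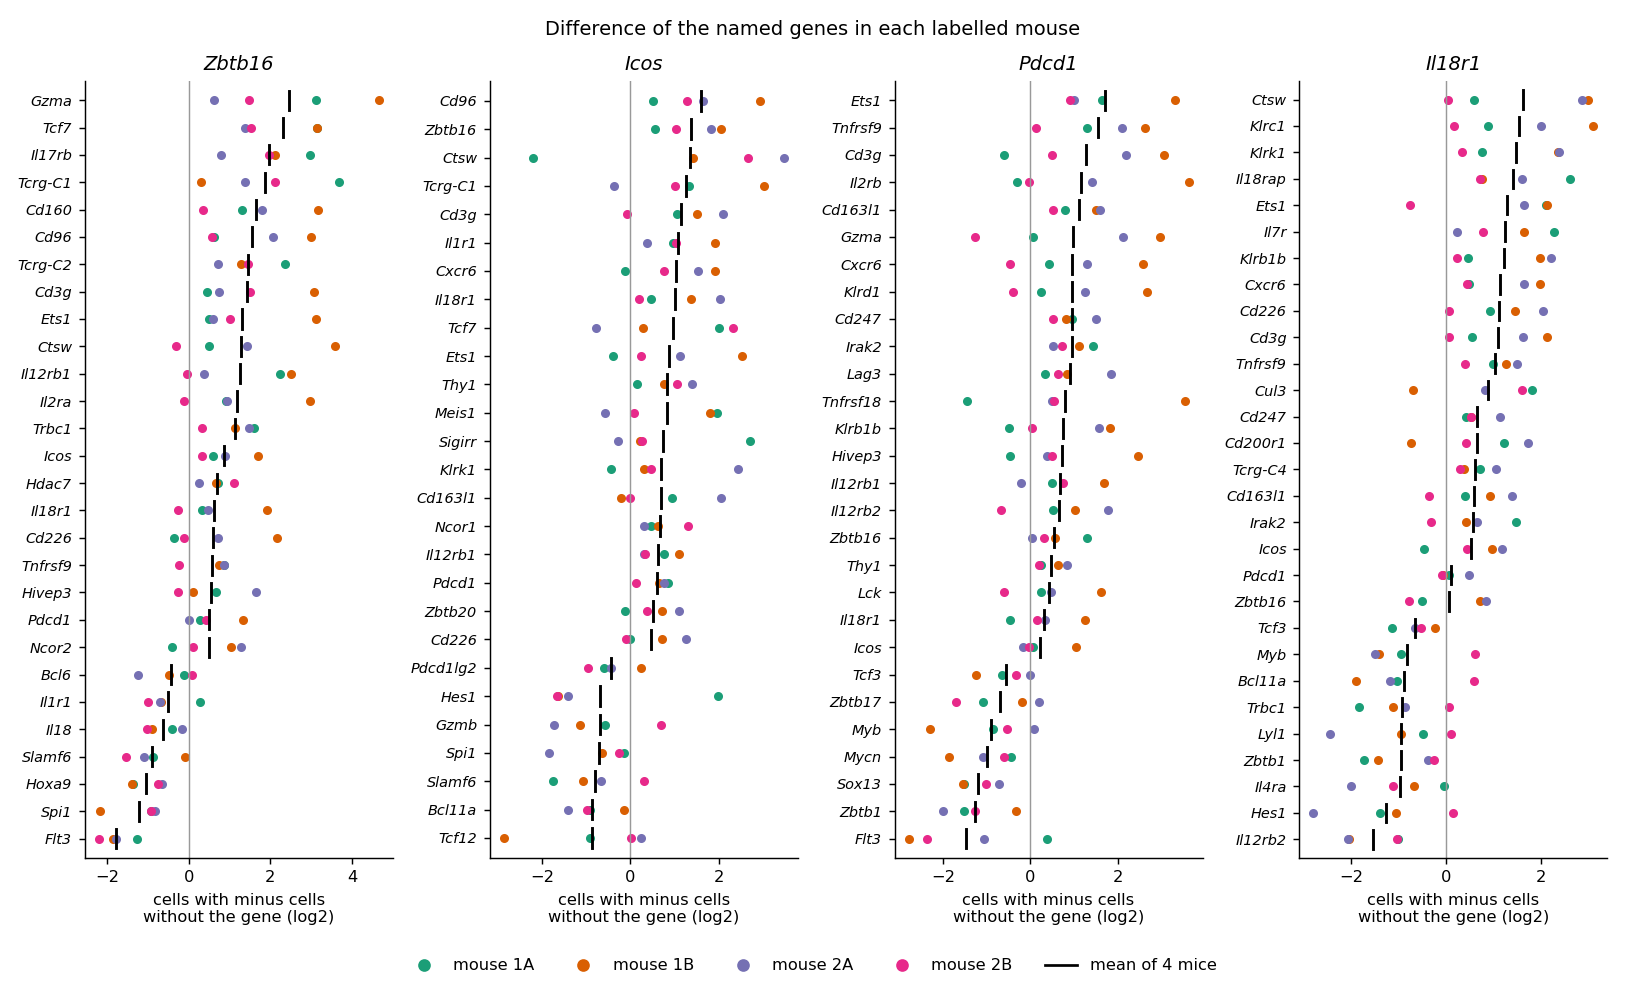
Adjusted difference in log2, cells with minus cells without the gene named above each panel (x axis), for the genes named by rule (rows), with 1 point per labelled mouse and a bar at the mean. Tcf7, Il17rb and Flt3 keep 1 sign in all 4 mice in the Zbtb16 panel (2.30, 1.96 and -1.78 log2), and in the Il18r1 panel the points of mouse 2B lie nearest to 0 for Klrk1 and Klrc1 (0.34 and 0.17 log2).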

How the data were processed

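Single cells of 4 labelled mouse ids (labels' protocols) were sorted into plates, and cDNA primed with oligo-dT was amplified and made into Nextera XT libraries. The authors' deposited matrix gives log2 expression values after their batch correction, known from the values. Per the submitters' processing notes, Salmon and the GRCm38 build were used. How values were normalized, corrected and filtered was not given in the sources used here. No doublet caller was run.

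Correction sets are cells sharing exact values (14.2 to 47.4% of values within a set, 0% across sets). Detection used a tolerance of 1e-06. Cells are not replicates, so the mouse was the unit, in mice with at least 3 cells on either side. Limma 3.58.1 in R 4.3.3 tested 1 adjusted difference per mouse and gene against 0 (two-sided, Benjamini-Hochberg at 0.05 over all genes in at least 10% of cells). Fits were tested on simulated data with 200 shifted genes. Limma p-values rest on the spread between labelled mice (or sets, where these were the units), moderated by a variance taken over all genes. They do not follow from the printed SD alone: Gzma with Zbtb16 had an SD of 1.79 and a moderated standard error of 0.615. The labelled mice may not be separate animals. Symbols came from GENCODE vM21; 159 features had none.

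Named genes were the 3 of each list with the largest absolute difference, the other members, and the 5 of highest rho. In the 17 lists some genes occur more than once. The members and lists were chosen with earlier results of these data known. Alternatives left out each mouse, the cells with Klrd1 and Il2rb, the first 8 wells of each set or the cells outside their mouse's main sets, or changed covariates, unit, threshold, filter or measure. Leaving out cells outside main sets was chosen after seeing the data, as were sets as units in comparing cells with Klrd1 and Il2rb, and the NK list without these genes. One more locus of the strain was left out of the text.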

Additional observations from a re-analysis of the deposited data

Results flagged for a closer look

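Of 126 groups of 4 mouse values tested, 5 had 1 mouse far from the other 3; chance flags about 1 in 20. In the Zbtb16 fit these were Tnfrsf9, at -0.24 log2 in mouse 2B, and Spi1, at -2.16 log2 in 1B. In the Icos fit it was Hes1, a Notch target, at 1.99 log2 in 1A and below 0 in the other mice. In the Il18r1 fit these were Ets1, at -0.76 log2 in 2B and above 0 in the other mice, and Cd247, a T-cell receptor chain, at 1.13 log2 in 2A.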

How the results depend on the processing

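The partner counts of 0 for the 4 genes were 0 under every alternative run except the partial Spearman correlation, which called 7 genes for Zbtb16, 1 for Icos and 27 for Il18r1. The fit of cells with Klrd1 and Il2rb called 152 genes with depth as the only covariate and 298 with sets as units; without the first 8 wells it was not run, as too few such cells remained. Leaving out each mouse gave detection shares of 26.9 to 37.9% (Zbtb16), 15.6 to 22.6% (Icos), 16.6 to 27.4% (Pdcd1) and 35.2 to 38.03% (Il18r1). At a linear value of 10 the shares were 9.30% for Icos, 5.34% for Pdcd1 and 12.1% for Il18r1, and that of Il18r1 was 30.7% without the cells with Klrd1 and Il2rb and 30.9% without the first wells.

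The co-detection excess of Zbtb16 and Il18r1 ran from -0.747 to 0.660 points as mice were left out (-0.747 without 1B). It was -1.50 without the cells with Klrd1 and Il2rb, -1.77 without the first wells, -0.463 without the 14 cells outside their mouse's main sets and -0.538 with sets as units. That of Pdcd1 and Il18r1 was -0.231 without the cells with Klrd1 and Il2rb and -0.211 without the first wells. As mice were left out the other pairs kept their sign, at 1.51 to 3.96 (Zbtb16 and Icos), 1.62 to 2.11 (Zbtb16 and Pdcd1), 0.401 to 1.16 (Icos and Pdcd1), 0.790 to 3.12 (Icos and Il18r1) and 0.431 to 1.18 points (Pdcd1 and Il18r1).

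Among single genes 45 values changed sign, 39 passed the threshold that the reported fit missed and 2092 did neither. Without the cells with Klrd1 and Il2rb the differences were, with Zbtb16, -0.0118 for Pdcd1 and -0.200 for Il18r1; with Pdcd1, -0.405 for Icos, -0.198 for Il18r1, -0.285 for Cxcr6, -0.0928 for Il2rb, -0.222 for Gzma, -0.0143 for Klrd1 and -0.348 for Il12rb1; and with Il18r1, -0.366 for Zbtb16 and -0.0270 for Pdcd1. Without the first wells they were, with Zbtb16, -0.0336 for Pdcd1 and -0.221 for Il18r1; with Icos, -0.000796 for Pdcd1; with Pdcd1, -0.458 for Icos, -0.184 for Il18r1, -0.351 for Cxcr6, -0.226 for Il2rb, -0.271 for Gzma, -0.103 for Klrd1 and -0.413 for Il12rb1; and with Il18r1, -0.423 for Zbtb16 and -0.0428 for Pdcd1. With detection of the partner as the measure they were -0.0195 for Tnfrsf9 with Zbtb16, -0.00825 for Pdcd1 and -0.0329 for Il12rb1 with Icos, -0.00994 for Icos, -0.00369 for Il12rb1 and 0.0175 for Tcf3 with Pdcd1, and -0.000272 for Zbtb16 with Il18r1. With the gene at a linear value of 10 they were -0.191 for Gzma, -0.0956 for Tnfrsf18 and 0.0445 for Myb with Pdcd1, and 0.345 for Trbc1 and 0.149 for Il4ra with Il18r1. Without depth as a covariate Zbtb16 with Il18r1 had -0.0333. Hivep3 between cells with Klrd1 and Il2rb and other cells was -0.603 without the 14 cells outside main sets, -0.723 with depth only, -0.252 with sets as units and -0.972 to 3.46 as mice were left out. As mice were left out the range was -0.0440 to 0.356 for Icos and -0.137 to 1.53 for Tnfrsf18 with Pdcd1, and -0.194 to 0.347 for Zbtb16 and -0.0254 to 0.167 for Pdcd1 with Il18r1. The changes of Il2rb and Klrd1 without the cells with Klrd1 and Il2rb follow from the choice of those cells. The cause of the other changes was not tested.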

Other observations

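Cell-cycle genes took different sides with the 4 genes. Of 12 genes of G2 and M phase, 12 had a difference above 0 with Il18r1 (median 0.67 log2, and 0.40 without the cells with Klrd1 and Il2rb) and 10 with Icos (0.29, and 0.33). With Pdcd1 2 were above 0 (-0.61, and -0.79), and with Zbtb16 1 (-0.29, and -0.51). Of 14 S phase genes 4, 5, 5 and 8 were above 0 with Il18r1, Icos, Pdcd1 and Zbtb16 (medians -0.34, -0.06, -0.04 and 0.08). The Pdcd1 median was 0.11 without the cells with Klrd1 and Il2rb. Limma called 0 of these genes in any of the 4 fits, against 0% of all genes. At an unadjusted p under 0.05, 5 of the G2 and M genes were above 0 with Il18r1 (2.57% of all genes) and 5 below 0 with Pdcd1 (4.56%). Without the cells with Klrd1 and Il2rb these were 0 (against 223 of 12484 genes) and 4 (against 472 of 12484).

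Markers of mast cells and basophils had medians of 0.62 with Il18r1 (5 of 6 above 0), -0.02 with Icos, -0.07 with Pdcd1 (0.44 without the cells with Klrd1 and Il2rb) and -0.39 with Zbtb16. Those of B cells lay between -0.12 and -0.05 and those of thymic stroma between -0.08 and 0.02.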
